A study of Mus musculus with 25 samples.

Results

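Mitochondrial ribosomal proteins are the nuclear-encoded proteins of the ribosome that works inside mitochondria. They were taken here as the protein-coding genes whose symbol is Mrpl or Mrps followed by a number and whose mean level over all libraries was at least 1 CPM. CPM are counts-per-million values after scaling of the libraries by TMM, the trimmed mean of M values. Of 47729 genes in the table, 78 protein-coding genes carry such a symbol and 77 reached the limit, 48 of the large subunit (Mrpl) and 29 of the small subunit (Mrps). The member nearest above the limit was Mrpl23 with a mean of 1.28 CPM, and the only gene below it was Mrpl53 with 0.0555 CPM, 88.0% of whose exon bases also lie in exons of other genes. The study sequenced total RNA of the brain (1 hemisphere as a whole, in bulk) in male C57BL/6 mice, an inbred strain, at ages of 2, 9, 15, 24 and 30 months, with 5 libraries at each age. Strain, sex and tissue are the same in all groups, and the labels name no treatment and no allele. The labels do not say that the 5 samples of an age are 5 separate animals, so p-values measure the spread between these samples.

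The mitochondrial ribosome translates the messenger RNAs of the mitochondrial genome, which all encode membrane subunits of the respiratory chain and of ATP synthase. Its ribosomal RNAs are made from mitochondrial DNA, whereas every one of its proteins is made in the cytosol and imported. Many of these proteins have a bacterial counterpart and others occur in mitochondria only, and defects in several of them cause inherited disease of energy metabolism in humans. Subunits were assigned by symbol. In mammalian mitoribosome structures the products of Mrps18a and Mrps30 lie in the large subunit, and the product of Mrps36 is known as a component of the 2-oxoglutarate dehydrogenase complex. The last of these stood at 2.06 CPM, so its part in any sum is small.

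Some promoters of the members hold motifs of factors that are known to bind promoters of nuclear genes for mitochondrial proteins. Windows around some of these sites are printed to show where the motifs lie. RefSeq promoters of GRCm38.p6, which run from 250 bases before to 50 bases after the start of the gene, were matched to 68 of the 77 members and to 17491 protein-coding genes in all. Motifs were searched on both strands. The core of ETS factors such as GABP, CCGGAAG, was present in 25 member promoters, or 36.8%, against 12.9% of all promoters. The core of YY1, AAGATGGCG, was present in 8, or 11.8%, against 2.14% of all. The palindromic core of nuclear respiratory factor 1, the letters in capitals in the last 3 windows below, was present in 3, or 4.41%, against 1.47% of all. The CCAAT box, by its letters CCAAT, was present in 38.2% of member promoters and 42.3% of all, and the TATA box TATAAA in 7.35% of member promoters and 14.8% of all. Member promoters held a median of 21 CG pairs, against 13 in all promoters, with a median GC content of 58.2% against 56.3%. The windows with the YY1 core follow, with the core in capitals and 10 bases on each side where the promoter allows, on the strand of the gene.
Mrpl35 (chr6:71823743-71823771, minus strand): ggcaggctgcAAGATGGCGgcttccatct
Mrpl37 (chr4:107066822-107066850, minus strand): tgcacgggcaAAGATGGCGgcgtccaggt
Mrpl42 (chr10:95501904-95501932, minus strand): agattgaagcAAGATGGCGagcgcgcggt
Mrps18a (chr17:46111005-46111033, plus strand): ggtgcgttccAAGATGGCGgccctcaggg
Mrps24 (chr11:5707652-5707675, minus strand): gcgccggcccAAGATGGCGtggtc
Mrps27 (chr13:99344790-99344818, plus strand): ggtgcgctccAAGATGGCGgctcccatgg
Mrpl36 (chr13:73330968-73330996, plus strand): cgtgaccttaCGCCATCTTtcttcctggc
Mrps11 (chr7:78783013-78783041, plus strand): ctacgggcgcCGCCATCTTtctgtcttcc
In the first 6 of these windows the core reads forward and begins 12 to 37 bases after the start of the gene. In 4 of those 6 (Mrpl35, Mrps18a, Mrps24 and Mrps27) the ATG within the core is also an annotated start codon, so the same letters encode the first amino acids of the protein. In Mrpl36 and Mrps11 the core reads in reverse and lies before the start. The 3 windows with the core of nuclear respiratory factor 1, again in capitals, are upstream of the start.
Mrpl32 (chr13:14613105-14613134, minus strand): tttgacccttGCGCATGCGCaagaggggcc
Mrpl39 (chr16:84735350-84735379, minus strand): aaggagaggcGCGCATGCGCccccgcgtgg
Mrpl9 (chr3:94443298-94443327, plus strand): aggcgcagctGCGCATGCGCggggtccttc
These matches describe letters in the reference genome, and no binding was measured.

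Library totals ran from 17800113 to 31261121 counts, and the members took 0.144% to 0.160% of counts in the libraries of 2 to 24 months. The median count of a member in a library was 426 and the lowest was 12. Replicates 2 to 5 of 30 months stand apart from the other 21 libraries in their dependence on the GC content of the transcript. In these 4 libraries the median log2 ratio to 2 months of the 10% of genes highest in GC exceeded that of the 10% lowest in GC by 1.07 to 1.94, against 0.12 in replicate 1 of 30 months and -0.26 to 0.14 at the younger ages. Results at 30 months are therefore given with and without these 4 libraries and after a correction for GC content, and the younger ages were compared in a fit of their own. Neuronal markers (Snap25, Syt1, Rbfox3, Slc17a7 and Gad1) summed to 5507 to 7006 CPM over the 25 libraries, and the 3 endothelial markers to 146 to 186 CPM. The 4 red blood cell markers ran from 28.5 to 184 CPM, the highest in a library of 9 months. In bulk tissue, fewer cells of a type and less RNA per cell cannot be told apart.

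Per kilobase of exon, Mrpl41 was the highest of the members at 29.4 CPM per kilobase. It was followed by Mrpl28 at 22.03, by Mrpl10, the protein that anchors the flexible stalk of the large subunit, at 20.8, and by Mrps12, a protein of the decoding centre, at 19.1. The lowest were Mrps10 at 1.75, Mrps36 at 1.62, Mrpl33 at 1.51 and Mrpl23 at 0.262 CPM per kilobase. The median was 8.93 CPM per kilobase in the large subunit and 5.34 in the small one. Annotated exon length covers every transcript of a gene, so genes with long alternative exons read low on this scale. Mrpl12, whose product forms the stalk itself, stood at 15.3. The 3 genes related to bacterial S18 differed, with Mrps18a at 9.45, Mrps18c at 7.21 and Mrps18b at 3.66 CPM per kilobase.

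**Figure D1:**
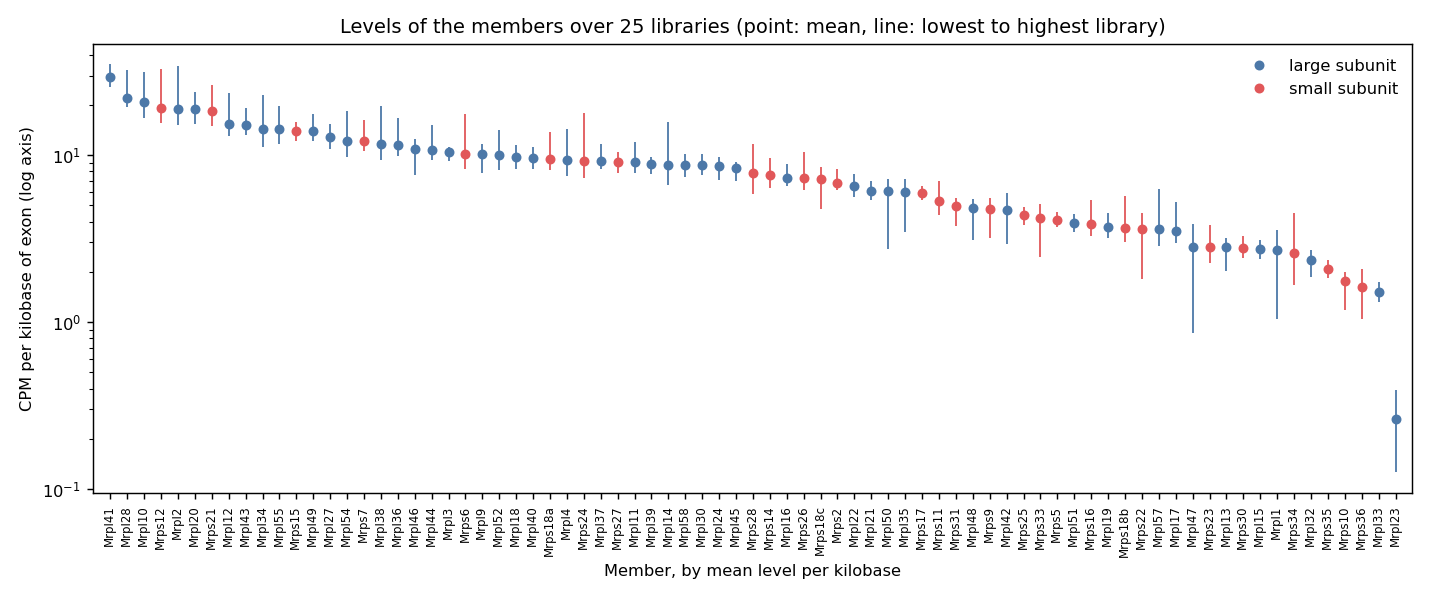
Mean level of each of the 77 members in CPM per kilobase of exon (log axis), ordered from high to low, with large subunit members in blue and small subunit members in red and a line from the lowest to the highest of 25 libraries. Mrpl41 stands highest at 29.4 and Mrpl23 lowest at 0.262, and the line of Mrpl47 reaches far down to its libraries of 30 months.

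The summed level of the members changed little over the ages of 2 to 24 months. The 48 large subunit members summed to 1019, 1001, 998, 1009 and 993 CPM in the 5 libraries of 2 months, to 990.0, 985, 1012, 991 and 1009.9 at 9 months, to 991, 993, 988, 995 and 997 at 15 months, to 993, 999, 1056, 1034 and 1027 at 24 months and to 971, 972, 994, 974 and 1148 at 30 months. The means were 1004 ± 10.1 at 2 months, 998 ± 12.3 at 9 months, 993 ± 3.48 at 15 months, 1022 ± 25.8 at 24 months and 1012 ± 76.8 at 30 months (SD, n = 5 each). Libraries of every age overlap with those of 2 months, and 30 months replicate 5 alone lies far above the rest. The 29 small subunit members summed to 506, 497, 508, 501 and 483 CPM at 2 months, to 500.3, 499, 515, 497 and 515 at 9 months, to 492, 493, 501, 502 and 507 at 15 months, to 493, 509, 530.4, 517 and 504 at 24 months and to 493, 503, 513, 508 and 614 at 30 months. Their means were 499 ± 9.71, 505 ± 9.16, 499 ± 6.51, 511 ± 14.006 and 526 ± 49.5 in the order of the ages (SD, n = 5 each), again with the highest value in 30 months replicate 5. The sum of the large subunit was 1.96 to 2.05 times that of the small one in the libraries of 2 to 24 months. The ratio was 1.97 in 30 months replicate 1 and 1.87 to 1.94 in replicates 2 to 5. After GC correction the sums at 30 months were 1102 ± 131 CPM in the large and 600.2 ± 96.0 CPM in the small subunit (SD, n = 5), a wider spread than without it. Without replicates 2 to 5 the single library of 30 months left stood at 971 and 493 CPM.

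**Figure D2:**
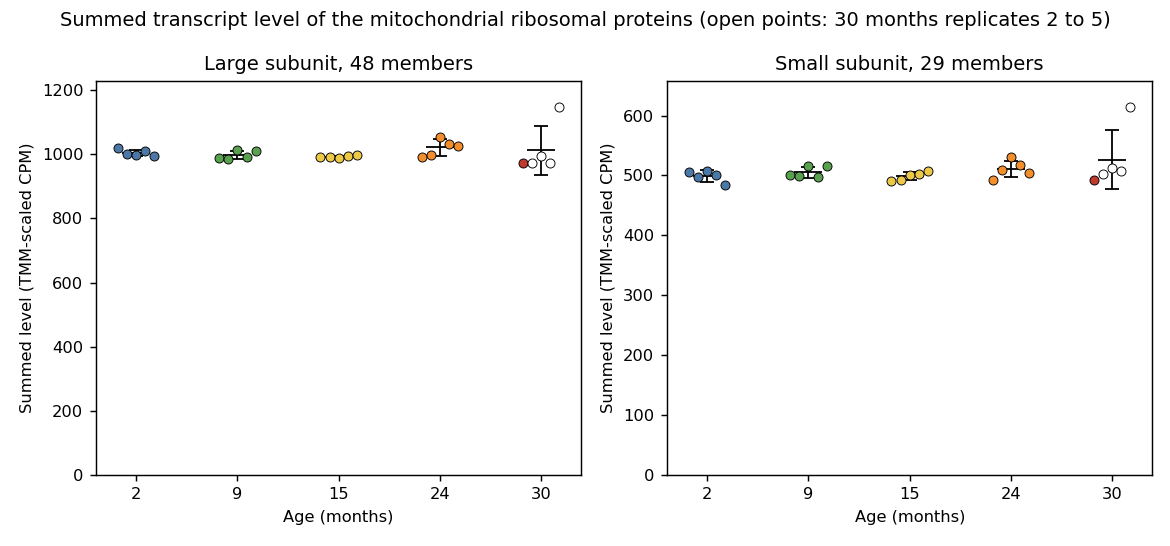
Summed CPM of the 48 large subunit members (left) and the 29 small subunit members (right) in each of 25 libraries by age in months, with the mean and SD of 5 libraries as bars and replicates 2 to 5 of 30 months as open points. The sums of 2 to 24 months stay within 985 to 1056 CPM and 483 to 530 CPM, and 30 months replicate 5 stands at 1148 and 614 CPM.

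Single members varied little from 2 to 24 months as well. Over the 20 libraries of 2 to 24 months the coefficient of variation of a member was 3.68% to 24.7%, with a median of 6.51%, against a median of 7.41% over 13813 protein-coding genes. The mean of a member lay within 10% of its mean at 2 months for 66 of 77 members at 9 months, 71 at 15 months, 70 at 24 months and 32 at 30 months. The same share over all genes was not computed, so these counts cannot be called particular to the members. The members did not vary as 1 block. The median Pearson correlation between members over the 20 libraries was 0.047, against 0.0063 between members and other protein-coding genes, and the libraries share their scaling in both. Against the mean of the other members, r ran from -0.37 for Mrpl1 to 0.68 for Mrpl40, and was above 0 for 56 and below 0 for 21 members. The genes outside the members whose level followed the mean of the members most closely were Thap4 (r = 0.84), Eri3 (r = 0.82) and Coq2, an enzyme of coenzyme Q synthesis (r = 0.80), over the same 20 libraries.

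At 9 months, 8 of 77 members differed from 2 months, 4 higher and 4 lower, split evenly between the subunits. That is 10.4% of the members, below the 14.5% of all 17799 genes tested that were called (edgeR's quasi-likelihood test with Benjamini-Hochberg adjustment over all genes at 0.05). Of all genes 7.76% were higher and 6.79% lower. The largest falls were in Mrpl54, a large subunit protein found in mitochondria only, and Mrps28, a small subunit protein. Mrpl54 (ENSMUSG00000034932, chr10:81264713-81266934) had 8.51, 7.99, 8.62, 9.04 and 8.77 CPM at 9 months, against 11.9, 10.9, 10.6, 9.84 and 10.6 CPM at 2 months. All 5 libraries of 9 months lay below all 5 of 2 months, and the log2 fold change was -0.33 (SE 0.065, adjusted p = 0.000769). At 15 and 24 months Mrpl54 averaged 9.60 ± 0.613 and 10.4 ± 0.525 CPM (SD, n = 5), which overlaps with 2 months. Mrps28 (ENSMUSG00000040269, chr3:8802146-8923918) had 5.02, 4.57, 4.67, 5.27 and 4.85 CPM at 9 months and 5.81, 6.99, 6.33, 7.42 and 5.27 CPM at 2 months. The highest library of 9 months reached the lowest of 2 months (log2 fold change -0.38, SE 0.088, adjusted p = 0.00342). Mrps10 (log2 fold change -0.18, adjusted p = 0.0402) and Mrpl20 (-0.14, adjusted p = 0.0414) were lower as well. The 4 members that rose were Mrps6, with a bacterial counterpart, by 0.25 (adjusted p = 0.00760), and the mitochondria-specific Mrpl42 by 0.22 (adjusted p = 0.00808), Mrpl51 by 0.19 (adjusted p = 0.00722) and Mrps35 by 0.17 (adjusted p = 0.0263). Mrpl51 had 17.05, 16.6, 17.9, 17.7 and 17.3 CPM at 9 months, against 14.02, 15.2, 15.9, 15.6 and 14.8 CPM at 2 months, with no overlap of the groups. Mrps6 had 15.3, 15.9, 17.5, 15.9 and 17.6 CPM at 9 months and 13.2, 13.3, 15.3, 14.003 and 12.7 CPM at 2 months, where the lowest of 9 months equals the highest of 2 months at this precision. Over all 77 members the median log2 fold change was -0.0068, against -0.0073 over all genes. The count of members called was 5 without 2 months replicate 2 or without replicate 3, and scaling by total counts gave 3 higher and 7 lower. The calls of Mrps35, Mrps10 and Mrpl20 were lost on leaving out any of 4, 7 and 6 single libraries of the 20, and the other 5 calls held without each library in turn. In a joint edgeR fit of all 25 libraries, whose shared spread includes the 4 libraries apart, 0 of the 77 were called, against 2.38% of all genes, and 11 had an unadjusted p below 0.05. The summed level of the 3 choroid plexus markers was 26.7 CPM in 9 months replicate 1 and 450.3 to 512 CPM at 2 months, and its part in these changes was not tested.

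At 15 months 1 of 77 members differed from 2 months, or 1.30%, against 12.6% of all genes, with 5.31% of all genes higher and 7.30% lower. It was Mrpl12, the stalk protein that recruits translation factors. Mrpl12 (ENSMUSG00000039640, chr11:120484613-120489065) had 20.9, 20.04, 21.9, 21.7 and 21.2 CPM at 15 months, against 24.7, 23.4, 23.9, 23.2 and 23.01 CPM at 2 months. The 2 groups did not overlap, and the log2 fold change was -0.16 (SE 0.049, edgeR adjusted p = 0.0277). The libraries of 15 months read low in genes of high GC content, with a gap of -0.26 to -0.099 between the 10% of genes highest and the 10% lowest in GC, and across the 77 members the log2 ratio to 2 months followed GC content at r = -0.49 to -0.13 in each of the 5. Mrpl12 has a GC content of 56.1%, and after GC correction its change was -0.10 with an adjusted p of 0.217. Its call was also lost without 15 months replicate 1 or 2 or without 2 months replicate 1 or 3, 3 members were called without 15 months replicate 4 and 2 without replicate 5. Next by p were Mrps22 at 0.14 and Mrpl1 at 0.15, both higher, and Mrpl10 at -0.13, lower. None of these passed (adjusted p = 0.0745, 0.106 and 0.0764). The median over members was -0.018, against -0.0077 over all genes.

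At 24 months 5 of 77 members differed from 2 months, 4 higher and 1 lower, all of the large subunit. This 6.49% of the members is below the 22.3% of all genes called, with 10.8% of all genes higher and 11.5% lower. The clearest was Mrpl41, a mitochondria-specific protein of the large subunit. Mrpl41 (ENSMUSG00000036850, chr2:24974117-24975098) had 30.8, 27.5, 31.1, 29.3 and 30.3 CPM at 24 months, against 27.1, 25.7, 24.3, 27.05 and 26.95 CPM at 2 months. Every library of 24 months lay above every library of 2 months, by a log2 fold change of 0.19 (SE 0.049, edgeR adjusted p = 0.00502). Mrpl11, a protein at the base of the stalk (ENSMUSG00000024902, chr19:4962147-4966999), had 32.02, 31.2, 32.5, 32.5 and 30.1 CPM at 24 months and 29.9, 28.1, 27.6, 29.02 and 28.7 CPM at 2 months. Here too the groups did not overlap (log2 fold change 0.14, SE 0.040, adjusted p = 0.00972). Mrpl38, of the central protuberance of the large subunit, rose by 0.15 (adjusted p = 0.0252). Mrpl58, which can hydrolyse peptidyl-tRNA to free stalled ribosomes, had 31.02, 31.1, 32.9, 31.7 and 31.5 CPM at 24 months, against 31.5, 28.1, 28.2, 27.4 and 28.5 CPM at 2 months. The libraries overlap in 2 months replicate 1, which stands above the other 4 of its age, and the log2 fold change was 0.14 (adjusted p = 0.0312). Mrpl36, a small protein with a bacterial counterpart, had 11.7, 12.01, 12.1, 12.1 and 12.1 CPM at 24 months and 12.4, 13.3, 13.8, 12.99 and 13.7 CPM at 2 months, lower in each library of 24 months (-0.14, adjusted p = 0.0400). The median over members was 0.040, against 0.0020 over all genes, and 49 of the 77 were above 0. The standard error of a member's log2 fold change was 0.032 to 0.21, with a median of 0.053, which sets the size of change that could be called.

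The libraries of 24 months differ in their markers as well. Alb, the albumin of liver, stood at 38.5 to 171 CPM at 24 months, against 0 to 128 CPM at 2 months, and the 4 liver markers together at 44.4 to 203 CPM against 0.664 to 149 CPM, with none of them at 0 in all libraries. The 3 choroid plexus markers summed to 577 to 683 CPM at 24 months and 450.3 to 512 CPM at 2 months. The oligodendrocyte markers Mbp, Mog and Mobp summed to 3680.4 to 3998 CPM at 24 months and 3191 to 3478 CPM at 2 months. All libraries of 24 months lay above all of 2 months in both of these sums, and their part in the member changes was not tested. With the log2 level of Alb as a covariate 1 member, Mrpl41, was called, at a log2 fold change of 0.23, against 11.6% of all genes. Of the 5 calls, Mrpl41 and Mrpl11 held without each library in turn and Mrpl38, Mrpl58 and Mrpl36 were lost in 2, 5 and 9 of the 20 leave-outs, and the count fell to 3 without 2 months replicate 3, 24 months replicate 3 or 24 months replicate 4. Scaling by DESeq2's size factors gave 4 higher and 2 lower, and total counts 6 higher and 0 lower.

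Between 15 and 24 months 20 members were called, 17 higher and 3 lower at 24 months, in a comparison that shares the libraries of 24 months with the one before. That is 26.0% of the members against 23.6% of all genes, close to the background in total but not by direction. Of the 77 members 17 were higher and 3 lower, against 12.3% of all genes higher and 11.3% lower. By subunit, 15 of 48 large subunit members were higher and 3 lower, and 2 of 29 small subunit members were higher and none lower. Mrpl41 had 30.8, 27.5, 31.1, 29.3 and 30.3 CPM at 24 months and 24.4, 26.5, 23.04, 24.9 and 26.99 CPM at 15 months, without overlap, a log2 fold change of 0.25 (SE 0.049, edgeR adjusted p = 0.000539). Mrpl58 had 27.1, 26.05, 29.2, 27.3 and 27.98 CPM at 15 months, below all 5 libraries of 24 months given above (0.20, adjusted p = 0.00258). Mrpl38 followed with 0.22 (adjusted p = 0.00154) and Mrpl10 with 0.17 (adjusted p = 0.00775). The 3 that fell were Mrpl1 (-0.22, adjusted p = 0.00853), Mrpl19 (-0.15, adjusted p = 0.0272) and Mrpl3 (-0.087, adjusted p = 0.0473), the member with the highest mean CPM (69.9).

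These changes went with GC content. Of the 17 members that rose, 15 lay above the members' median GC content of 49.7%, and all 3 that fell lay below it. Across the 77 members the log2 fold change followed GC content at r = 0.57. After GC correction r was -0.078 and 6 members were called, all higher and all of the large subunit, against 5.08% of all genes called higher and 6.92% lower. Those 6 were Mrpl11, Mrpl15, Mrpl17, Mrpl41, Mrpl43 and Mrpl58, and all but Mrpl15 were also called without correction. Mrpl41 stood at 0.21 after correction and Mrpl58 at 0.20, while Mrpl38 stood at 0.086 with an adjusted p of 0.204. Mrpl41 was also the 1 member called in the joint fit of all 25 libraries, where 1.13% of all genes were called. The choroid plexus markers summed to 577 to 683 CPM at 24 months and 396 to 561 CPM at 15 months, and Mbp, Mog and Mobp to 3680.4 to 3998 CPM at 24 months and 2976 to 3132 CPM at 15 months. Neither sum overlaps between the ages, and their part in the member changes was not tested. The count was 10 and 12 without 15 months replicate 1 or 2, 11 and 13 without 24 months replicate 3 or 4, and DESeq2's size factors gave 11 higher and 4 lower.

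A straight line in age over the 20 libraries of 2 to 24 months was called for 4 members, or 5.19%, against 16.6% of all genes, with 8.16% of all genes rising and 8.41% falling. All 4 belong to the large subunit. Mrpl41 rose by 0.0098 log2 per month (SE 0.0029, edgeR adjusted p = 0.0224), Mrpl11 by 0.0080 (SE 0.0023, adjusted p = 0.0172) and Mrpl15 by 0.0062 (SE 0.0021, adjusted p = 0.0443), and Mrpl36 fell by 0.0081 log2 per month (SE 0.0024, adjusted p = 0.0224). Over 22 months these slopes amount to 0.21, 0.18, 0.14 and -0.18 on the log2 scale. Mrpl15 (ENSMUSG00000033845, chr1:4773206-4785739), a protein with a bacterial counterpart, had 21.6, 23.8, 22.7, 21.9 and 21.99 CPM at 2 months, 22.3, 22.1, 22.2, 20.2 and 24.04 at 9 months, 24.1, 23.6, 23.2, 21.9 and 23.9 at 15 months, 23.5, 23.6, 26.2, 24.6 and 24.1 at 24 months and 22.3, 23.2, 23.7, 23.4 and 26.4 at 30 months. The libraries of 2 and 24 months overlap, and the highest of these values were in 30 months replicate 5 and 24 months replicate 3. After GC correction the libraries of 30 months stood at 23.2, 40.9, 47.8, 45.8 and 64.8 CPM, with replicates 2 to 5 above all 20 younger libraries and replicate 1 among them. The log2 fold change against 2 months was 0.087 without correction and 0.96 with it (edgeR adjusted p = 0.162 and 2.06e-05). Mrpl15 lies below the members' median GC content of 49.7%. At 30 against 2 months, r with GC content over the 77 members was 0.58 without correction and -0.46 with it. With correction, members below the median GC content had a median log2 fold change of 0.18, and those above it 0.0053. The part of the correction in the rise of Mrpl15 was not tested. Mrpl41 and Mrpl11 did not climb at each step. Mrpl41 averaged 26.2 ± 1.21, 24.03 ± 1.32, 25.2 ± 1.60, 29.8 ± 1.47 and 25.3 ± 2.41 CPM from 2 to 30 months, and Mrpl11 28.7 ± 0.881, 26.6 ± 1.22, 28.7 ± 0.953, 31.7 ± 1.02 and 30.5 ± 4.74 CPM (SD, n = 5 each). In both, 9 months was the lowest age and 24 months the highest. Mrpl36, by contrast, averaged 13.2 ± 0.570, 13.7 ± 0.379, 12.2 ± 0.589, 12.02 ± 0.169 and 15.2 ± 2.72 CPM, highest at 9 months among the younger ages. Without 24 months replicate 1 the edgeR count was 0 of 77 (8 at an unadjusted p below 0.05), without 24 months replicate 3 it was 1 and without replicate 5 it was 2. With Alb as a covariate it was 0 (4 at an unadjusted p below 0.05), against 5.45% of all genes. Mrpl15 was lost in 13 of 20 leave-outs.

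**Figure D3:**
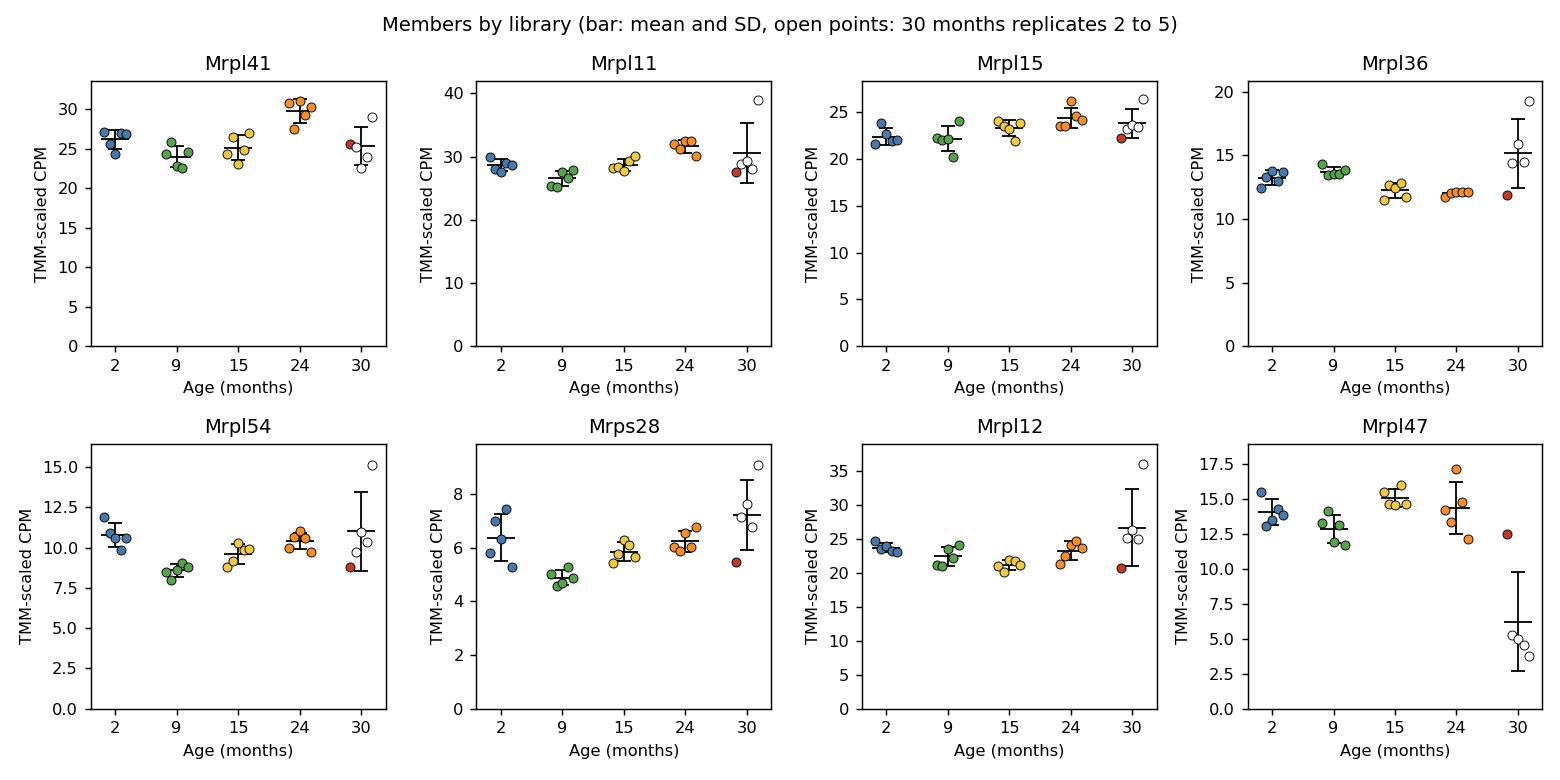
CPM of 8 members in each of 25 libraries by age in months, with the mean and SD of 5 libraries as bars and replicates 2 to 5 of 30 months as open points. Mrpl41 is highest at 24 months, Mrpl54 and Mrps28 are lowest at 9 months, and Mrpl47 falls to 3.79 to 5.26 CPM in the open points against 12.5 CPM in the filled point of 30 months.

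The promoters of 3 of these 4 members are shown whole on the strand of the gene, since these are the members with a line over age, with matches to the CCAAT box (on either strand, CCAAT or ATTGG) and to the YY1 core in capitals.
Mrpl41 (chr2:24975049-24975348, minus strand): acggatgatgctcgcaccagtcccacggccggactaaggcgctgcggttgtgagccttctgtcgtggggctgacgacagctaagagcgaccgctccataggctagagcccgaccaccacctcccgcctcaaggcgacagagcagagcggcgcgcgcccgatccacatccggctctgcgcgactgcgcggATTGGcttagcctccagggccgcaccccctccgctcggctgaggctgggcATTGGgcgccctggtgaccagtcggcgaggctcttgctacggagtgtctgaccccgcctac
Mrpl11 (chr19:4962056-4962355, plus strand): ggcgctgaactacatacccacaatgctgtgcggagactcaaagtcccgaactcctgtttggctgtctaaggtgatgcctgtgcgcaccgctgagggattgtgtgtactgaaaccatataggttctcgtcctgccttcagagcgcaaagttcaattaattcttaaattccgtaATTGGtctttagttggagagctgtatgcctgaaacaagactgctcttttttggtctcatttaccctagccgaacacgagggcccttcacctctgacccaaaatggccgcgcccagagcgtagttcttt
Mrpl36 (chr13:73330759-73331058, plus strand): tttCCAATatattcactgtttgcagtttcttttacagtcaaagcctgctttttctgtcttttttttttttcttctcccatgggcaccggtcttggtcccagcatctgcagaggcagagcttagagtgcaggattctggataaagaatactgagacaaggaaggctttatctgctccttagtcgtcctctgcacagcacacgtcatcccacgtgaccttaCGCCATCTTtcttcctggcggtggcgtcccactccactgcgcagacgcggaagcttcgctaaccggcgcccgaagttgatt
The promoter of Mrpl41 has a GC content of 68.0% and 31 CG pairs. Those of Mrpl11 and Mrpl36 have 49.3% and 49.7% with 13 and 14 CG pairs, below the median of the members. Each holds a CCAAT box on one of the strands, and the YY1 core occurs in that of Mrpl36 alone.

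At 30 months 39 of 77 members differed from 2 months, 22 higher and 17 lower. That is 50.6% of the members, against 58.0% of all genes, with 28.5% of all genes higher and 29.5% lower. In the large subunit 12 were higher and 12 lower, and in the small subunit 10 were higher and 5 lower. A fit without replicates 2 to 5 leaves a single library of 30 months, so fewer calls there cannot show what this count rests on. Without them 1 member was called, Mrpl20, lower (log2 fold change -0.31, adjusted p = 0.0151), against 7.26% of all genes, 4.19% higher and 3.08% lower, and 17 members had an unadjusted p below 0.05. That fit assumes that the single library of 30 months varies like the other groups, and Mrpl20 was not among the 39. Mrpl47 (ENSMUSG00000037531, chr3:32725397-32737605), a counterpart of bacterial L29, showed the largest difference. Mrpl47 shares 24.2% of its exon bases with genes on the other strand, Ndufb5 and Actl6a. It had 12.5, 5.26, 4.96, 4.55 and 3.79 CPM at 30 months, against 15.5, 13.1, 13.5, 14.2 and 13.9 CPM at 2 months. Replicate 1, the first value, lies just under the range of 2 months, and the 4 others lie far below every library of 2 months (log2 fold change -1.17, SE 0.19, edgeR adjusted p = 3.23e-05). Without replicates 2 to 5 the value was -0.17 with an adjusted p of 0.489. Mrpl48 (-0.45, adjusted p = 1.93e-05), Mrpl46 (-0.42, adjusted p = 3.67e-05) and Mrpl9 (-0.33, adjusted p = 5.05e-05) were lower too. Without the 4 libraries these stood at -0.15, -0.22 and -0.24, none of them called. Mrpl9 had 24.3, 24.6, 22.2, 21.04 and 22.1 CPM at 30 months and 29.5, 27.9, 29.4, 27.2 and 29.3 CPM at 2 months. All 5 libraries of 30 months, replicate 1 included, lie below all 5 of 2 months.

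The strongest rises by p were Mrpl38 at 0.51 (adjusted p = 5.57e-05), Mrps24, a protein of the small subunit, at 0.62 (adjusted p = 5.77e-05), Mrpl2, of the core around the peptidyl transferase centre, at 0.50 (adjusted p = 6.59e-05), and Mrps34 at 0.62 (adjusted p = 8.73e-05). Mrps24 had 13.99, 15.5, 18.1, 17.5 and 26.3 CPM at 30 months and 12.02, 11.03, 12.3, 12.5 and 11.4 CPM at 2 months. Mrpl2 had 23.6, 27.3, 27.9, 27.6 and 39.8 CPM at 30 months and 21.2, 21.3, 20.6, 19.2 and 21.1 CPM at 2 months. In both, every library of 30 months lies above every library of 2 months, with replicate 1 the lowest and replicate 5 the highest of its group. Mrps34 had 6.42, 6.89, 7.17, 6.57 and 9.28 CPM at 30 months and 4.54, 4.03, 5.14, 4.95 and 4.96 CPM at 2 months, also without overlap. In Mrps34, 77.8% of exon bases are shared with other genes, so its counts may hold reads of a neighbour or lack reads of its own. Without replicates 2 to 5 the log2 fold changes of Mrpl38, Mrps24, Mrpl2 and Mrps34 were 0.13, 0.24, 0.19 and 0.44, with adjusted p of 0.404, 0.169, 0.174 and 0.122.

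**Figure D4:**
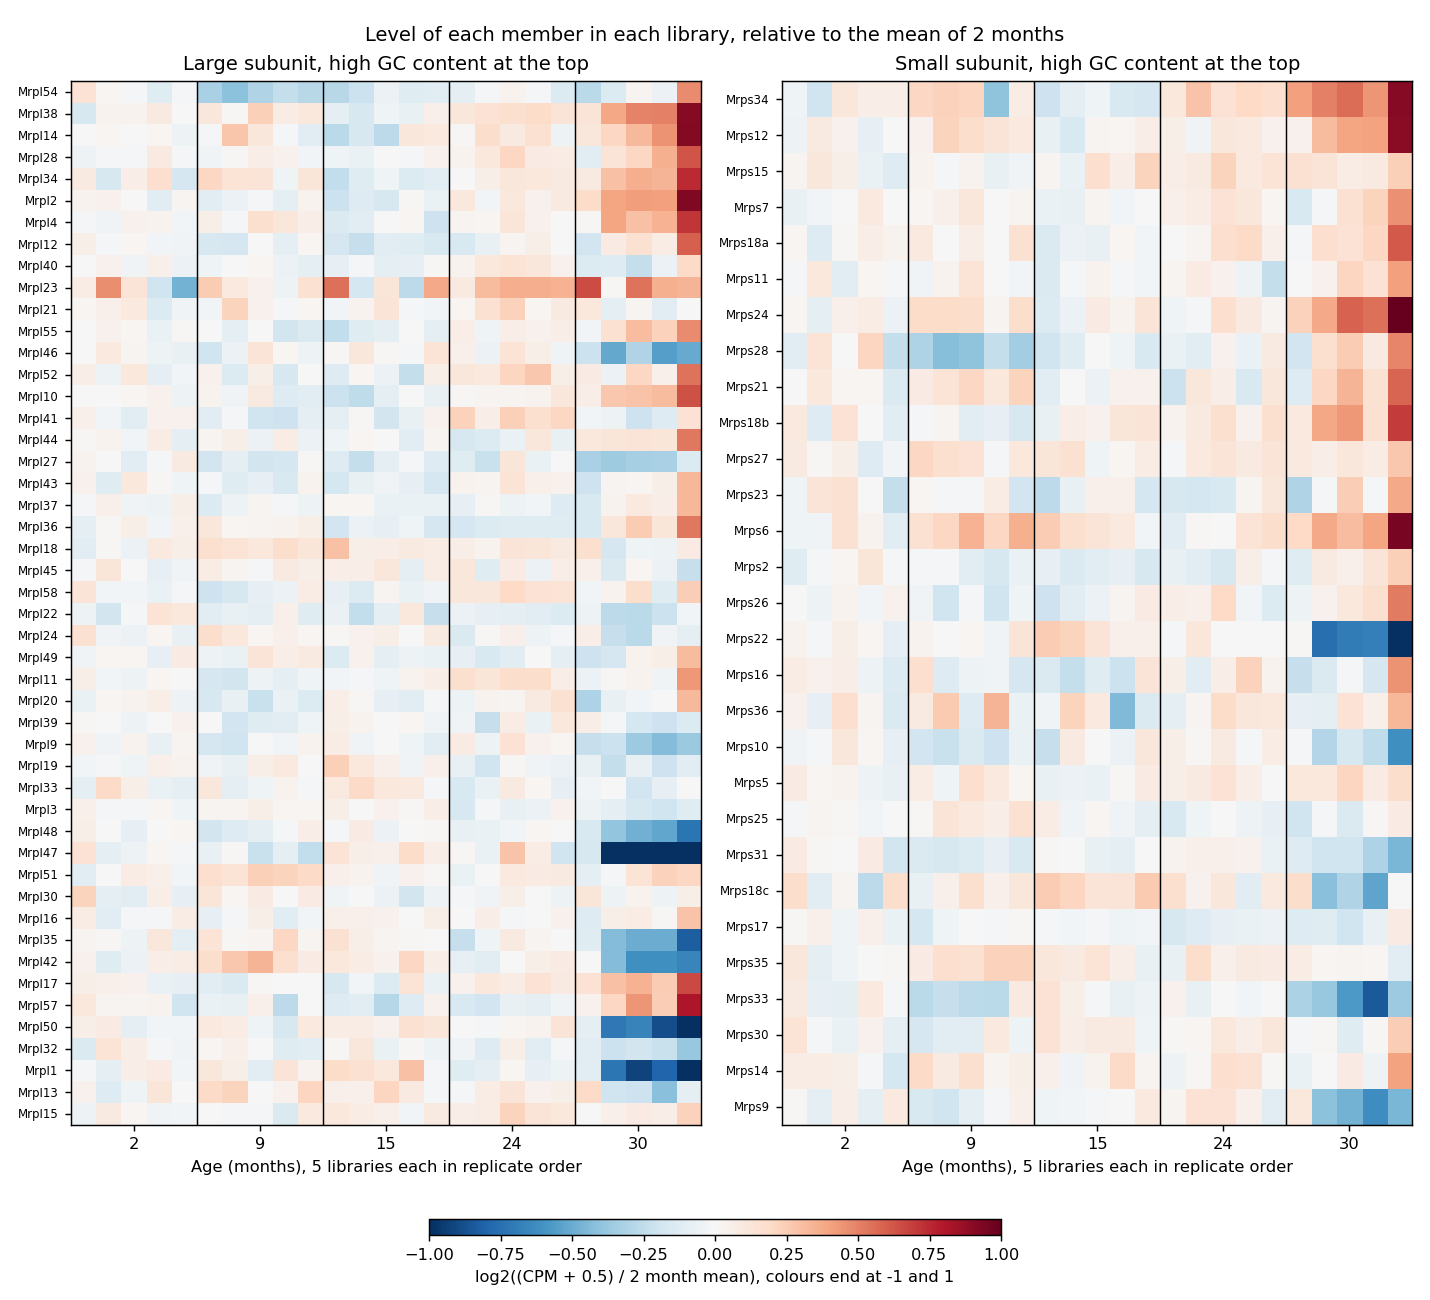
Log2 ratio of each member to its mean at 2 months in each of 25 libraries, in columns by age and replicate, with large subunit members on the left and small subunit members on the right and GC content falling from top to bottom (red above, blue below, colours end at -1 and 1). The last 4 columns, 30 months replicates 2 to 5, are mostly red in the upper rows and hold the deepest blue in the lower rows, and 30 months replicate 1 is paler.

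The differences at 30 months were ordered by GC content. Of the 22 members higher at 30 than at 2 months 19 lay above the members' median GC content, and of the 17 lower 15 lay below it. The log2 fold change followed GC content over the 77 members at r = 0.58, and the median was 0.18 above the median GC content and -0.090 below it. Per library, r was 0.51 to 0.58 in replicates 2 to 5 and 0.17 in replicate 1. The log2 ratio to 2 months of the members, leaving out the 10% highest and the 10% lowest, spanned 0.71 to 1.32 in replicates 2 to 5, 0.37 in replicate 1 and 0.17 to 0.38 at the younger ages. The members' own GC content runs from 38.6% to 60.4% with a median of 49.7%, close to the 49.6% of all genes tested. After GC correction 35 members were called, 24 higher and 11 lower, against 46.3% of all genes, 23.5% higher and 22.8% lower. The relation to GC content over the members then had the opposite sign, r = -0.46. Of the 39 members called without correction, 17 were called in the same direction with it, 11 higher and 6 lower, and 3 in the opposite direction (Mrpl3, Mrpl32 and Mrps9). The 6 lower in both were Mrpl9, Mrpl27, Mrpl46, Mrpl47, Mrpl48 and Mrps22. Mrpl47 stood at -0.86 after correction, Mrpl46 at -0.58, Mrpl48 at -0.13 and Mrpl9 at -0.17. Among the 11 higher in both, Mrps24 stood at 0.37, Mrps34 at 0.26, Mrpl2 at 0.18 and Mrpl38 at 0.15. Replicate 1 is among the libraries of 30 months in the fits that chose these 17, so its direction is no separate check on them. For 16 of the 17, replicate 1 alone was on the same side of 2 months. The exception was Mrps22, with 15.1, 8.70, 9.03, 9.14 and 7.19 CPM at 30 months, where replicate 1 is at the level of 2 months (15.3, 14.8, 15.6, 15.2 and 14.01 CPM).

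**Figure D5:**
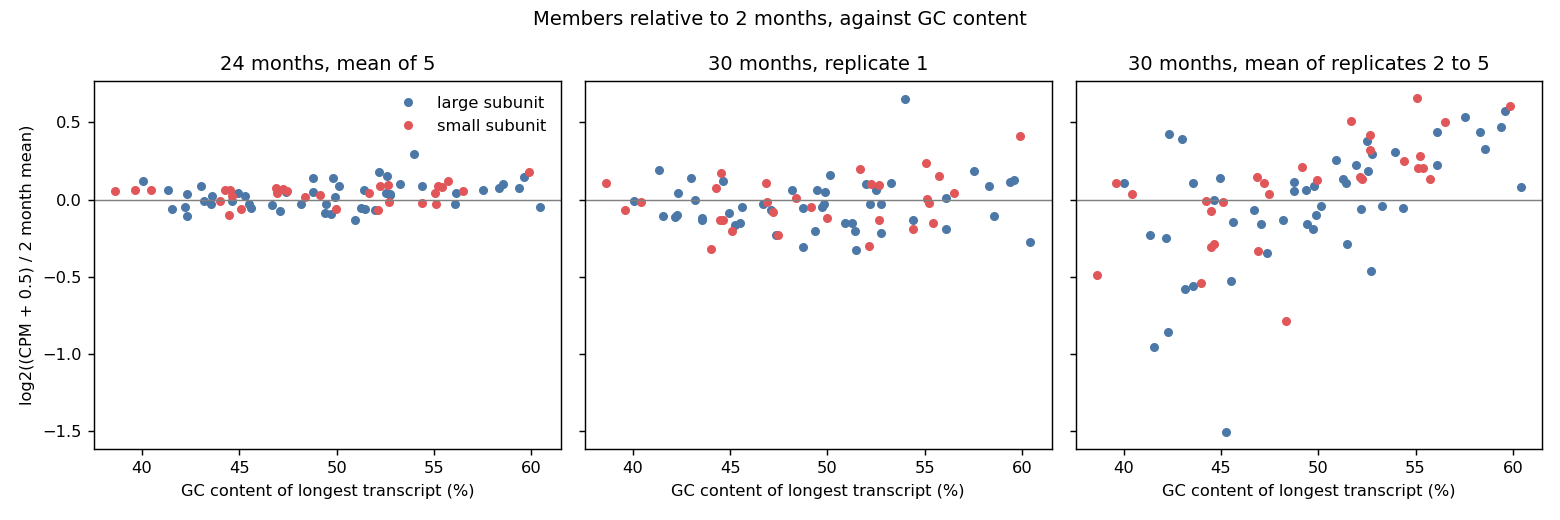
Log2 ratio of each of the 77 members to its mean at 2 months against the GC content of its longest transcript in percent, for the mean of 24 months (left), 30 months replicate 1 (middle) and the mean of 30 months replicates 2 to 5 (right), with large subunit members in blue and small subunit members in red. The points rise with GC content in the right panel (r = 0.57), with Mrpl47 lowest at -1.51, and less in the others (r = 0.27 on the left and 0.17 in the middle).

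Against 24 months, 38 members differed at 30 months, 19 higher and 19 lower, or 49.4%, against 54.5% of all genes, 25.5% higher and 29.0% lower. These comparisons share the libraries of 30 months with those above, and the ones against 2 months share the libraries of 2 months. Mrpl9, Mrpl46, Mrpl47 and Mrpl50 had the smallest p among the lower members, at -0.38, -0.45, -1.20 and -0.72 (edgeR adjusted p = 2.87e-05, 3.83e-05, 4.66e-05 and 5.63e-05). Mrps24, Mrpl2, Mrpl57 and Mrpl36 had it among the higher ones, at 0.58, 0.43, 0.50 and 0.33 (adjusted p = 0.000161, 0.000308, 0.000387 and 0.00113). Mrpl9 had 30.4, 27.6, 31.7, 29.5 and 29.01 CPM at 24 months, above every library of 30 months. After GC correction 36 members were called, 22 higher and 14 lower, against 40.9% of all genes, 20.7% higher and 20.2% lower, and Mrpl57 then stood at 1.15 and Mrpl50 at -0.17. Without replicates 2 to 5 the only member called was again Mrpl20 (-0.36, adjusted p = 0.00812), against 2.33% of all genes, 1.52% higher and 0.809% lower. Mrpl36 then stood at -0.021, on the other side of 24 months. Mrpl20 had 25.7, 30.3, 31.3, 31.9 and 39.9 CPM at 30 months, 30.7, 32.6, 32.5, 33.96 and 35.5 CPM at 24 months and 30.4, 32.2, 32.6, 33.3 and 30.7 CPM at 2 months, so replicate 1 is the lowest and replicate 5 the highest of all libraries shown. Scaling by total counts gave 24 higher and 15 lower against 24 months and 30 higher and 15 lower against 2 months. Astrocyte markers summed to 853 to 1063 CPM at 30 months and 1078 to 1116 CPM at 2 months, and Mbp, Mog and Mobp to 3977 to 5541 CPM and 3191 to 3478 CPM at these ages, without overlap in either. Choroid plexus markers summed to 507 to 887 CPM at 30 months and 450.3 to 512 CPM at 2 months, and microglial markers to 235 to 290.3 CPM at 30 months and 211 to 246 CPM at 2 months, with overlap. The part of these cell types in the changes was not tested.

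Among members chosen for their role, the 3 genes related to bacterial S18 differed in their values at 30 months. Mrps18b rose by 0.38 against 2 months (edgeR adjusted p = 0.00118, 0.22 after GC correction) and Mrps18a by 0.24 (adjusted p = 0.0117, -0.013 after correction), while Mrps18c stood at -0.21 without a call (adjusted p = 0.108, 0.20 after correction). Mrps18c had 8.60, 5.55, 6.05, 5.10 and 7.58 CPM at 30 months and 8.60, 6.94, 7.71, 6.24 and 8.59 CPM at 2 months. Mrps12, of the decoding centre, had 18.6, 22.6, 23.9, 23.97 and 34.1 CPM at 30 months and 17.4, 19.3, 18.6, 17.04 and 18.1 CPM at 2 months (0.44, adjusted p = 0.000499, 0.15 after correction). Replicate 1 of 30 months lies within the range of 2 months and the other 4 lie above it. Mrpl58 stood at 0.068 (adjusted p = 0.367). Mrpl41, highest at 24 months, was lower at 30 months than at 24 months (log2 fold change -0.24, adjusted p = 0.00221, -0.36 after correction). It had 25.7, 25.2, 22.6, 23.97 and 29.05 CPM at 30 months, against the 5 values of 24 months given above.

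The rest of the mitochondrial translation apparatus was read from lists of named genes. List values at 9 to 24 months are given without GC correction, although the libraries of 15 months read low in genes of high GC content. Of 5 mitoribosomal proteins with other symbols, Gadd45gip1 of the large subunit rose at 24 months against 2 months (0.22, edgeR adjusted p = 0.0228) and Aurkaip1 of the small subunit fell at 15 months (-0.14, adjusted p = 0.0247). These single calls are 20% of the list at 24 and at 15 months, against 22.3% and 12.6% of all genes. At 24 against 15 months Gadd45gip1 rose as well (0.32, adjusted p = 0.00154) and Ptcd3 fell (-0.14, adjusted p = 0.00354), 40% of the list against 23.6% of all genes. Dap3, a GTP-binding protein of the small subunit, averaged 47.1 ± 0.666 CPM at 24 months and 48.5 ± 2.10 CPM at 2 months (SD, n = 5) without a call. Of 20 genes for mitochondrial aminoacyl-tRNA synthetases and the related amidotransferase, 1 rose and 2 fell at 24 against 2 months, 15.0% against 22.3% of all genes. Of these, Pars2, for proline, rose by 0.27 (edgeR adjusted p = 0.0208) and Mars2, for methionine, fell (-0.18, adjusted p = 0.000797). Mars2 averaged 28.8 ± 0.386 CPM at 24 months, against 32.6 ± 1.08 CPM at 2 months (SD, n = 5). At 9 against 2 months 1 rose and 3 fell, 20% of the list against 14.5% of all genes. At 15 against 2 months 1 fell, 5% of the list against 12.6% of all genes. Of 15 translation factors the edgeR test called 0 at 15, 24 against 15 and 24 against 2 months and in the line over age, with 0, 2, 4 and 1 at an unadjusted p below 0.05. Of all genes 12.6%, 23.6%, 22.3% and 16.6% were called there. At 9 months Lrpprc, which stabilises mitochondrial messenger RNA, fell (-0.16, adjusted p = 0.00227), Guf1 fell (-0.17, adjusted p = 0.0202) and Mrrf, which recycles the ribosome, rose by 0.20 (adjusted p = 0.0258). These calls are 20% of the list, against 14.5% of all genes.

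Of 22 assembly factors of the mitoribosome 2 rose and 1 fell at 9 months, 2 rose and 2 fell at 15 months and 1 fell at 24 months, each against 2 months. These are 13.6%, 18.2% and 4.55% of the list, against 14.5%, 12.6% and 22.3% of all genes. The last was Dhx30, an RNA helicase (-0.10, edgeR adjusted p = 0.00771), which also fell at 15 months (-0.12, adjusted p = 0.00470), and Mettl17 rose at 9 months (0.18, adjusted p = 0.0199). Of 13 genes for mitochondrial transcription and RNA processing, the edgeR test called 0 at 9 months (0 at an unadjusted p below 0.05), against 14.5% of all genes. Elac2 and Polrmt, the mitochondrial RNA polymerase, fell at 15 months (-0.19 and -0.15, adjusted p = 0.00294 and 0.0203), and at 24 months Hsd17b10 rose and Polg fell (0.17 and -0.10, adjusted p = 0.0399 and 0.0371). These are 15.4% of the list at 15 and at 24 months, against 12.6% and 22.3% of all genes. Of 9 regulators, Nrf1, Gabpa and Gabpb1 rose at 9 months. Nrf1, which binds the palindromic core shown above, had 20.6 ± 1.53 CPM at 24 months and 17.7 ± 0.626 CPM at 2 months (SD, n = 5; log2 fold change 0.22, adjusted p = 0.00141). Yy1 had 38.9 ± 1.60 CPM at 24 months and 42.7 ± 1.92 CPM at 2 months (-0.14, adjusted p = 0.0136). Gabpb1 rose and Ppargc1b fell at 24 months as well (0.19 and -0.23, adjusted p = 0.00787 and 0.00978). The regulators called are 33.3% of the 9 at 9 months and 44.4% at 24 months, against 14.5% and 22.3% of all genes. At 30 against 2 months the calls were 1 higher and 2 lower among the 5 mitoribosomal proteins of other symbols, 5 and 8 among the synthetases, 2 and 8 among the translation factors, 6 and 3 among the assembly factors, 2 and 6 among the transcription genes and 2 and 2 among the regulators, where 58.0% of all genes were called. After GC correction, in the same order of lists, they were 1 higher and 3 lower, 1 and 5, 3 and 7, 5 and 4, 2 and 5, and 4 and 1, where 46.3% of all genes were called. Without replicates 2 to 5 the edgeR test called 2 assembly factors, both lower, and 0 genes of the other 5 lists (4, 5, 1, 4 and 1 at an unadjusted p below 0.05 in the order above).

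Set beside 2 larger groups, the members had the smallest share of calls at 24 against 2 months. Of 87 cytosolic ribosomal proteins 22 were higher and 2 lower, 27.6% (median log2 fold change 0.068), and of 85 nuclear-encoded subunits of the respiratory chain and ATP synthase 11 were higher and 4 lower, 17.6% (median 0.027), against 6.49% of the members (median 0.040) and 22.3% of all genes. The line over age was called for 16 cytosolic ribosomal proteins, all rising, for 6 rising and 2 falling respiratory chain subunits, and for 3 rising and 1 falling member. In that order these are 18.4%, 9.41% and 5.19% of the groups, against 16.6% of all genes. The groups were not matched for level, which affects how small a change can be called, and the differences between them were not tested. The RNAs that the members bind, the mitochondrial ribosomal RNAs mt-Rnr1 and mt-Rnr2, were both higher at 30 months. Against 2 months both had also risen at 9 months, mt-Rnr1 by 0.27 and mt-Rnr2 by 0.24 (edgeR adjusted p = 0.0263 and 0.0121). At 15 months mt-Rnr2 rose by 0.19 (adjusted p = 0.0469) and mt-Rnr1 was not called (adjusted p = 0.0945), and at 24 months mt-Rnr1 rose by 0.22 (adjusted p = 0.0491) and mt-Rnr2 was not called (adjusted p = 0.0597). mt-Rnr1 averaged 5971 ± 698 CPM at 30 months and 2370.0 ± 152 CPM at 2 months, and mt-Rnr2 9295 ± 1481 CPM at 30 months and 4337 ± 244 CPM at 2 months (SD, n = 5). Their log2 fold changes were 1.33 and 1.10 (edgeR adjusted p = 9.23e-11 and 1.77e-09). The median log2 fold change over the pair was 1.22 in all 25 libraries, 1.18 without replicates 2 to 5 and 2.44 after GC correction. The GC curve was fitted to protein-coding genes only, which leaves out these 2 RNAs, so the corrected value is uncertain. The 2 RNAs took 1.402% to 1.89% of counts in the 5 libraries of 30 months, replicate 1 included at 1.56%, and 0.633% to 0.847% in the 20 younger ones. The summed members, with 971 and 493 CPM in that same replicate 1, lay below their means of 2 months.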

How the data were processed

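The deposited table holds raw counts of reads per gene, made by the authors for 47729 genes in 25 libraries, of which 47310 were matched to the GENCODE M21 annotation by identifier and 419 were not. Per the submitters' processing notes, the tools were CASAVA 1.7, STAR 2.4.1d and featureCounts 1.4.6-p4 and the genome was GRCm38, and per the labels' protocols the libraries were made with an Illumina TruSeq RNA kit. The annotation release and the settings for strand and for reads with several positions are not given in the sources used here, so members with shared exon bases or close copies are uncertain: 9 members share over 20% of their exon bases with other genes, 45 share none, and the annotated pseudogenes of members had at most 10 counts in a library. Those 9 are Mrpl19, Mrpl24, Mrpl43, Mrpl47, Mrps18b, Mrps18c, Mrps25, Mrps27 and Mrps34, and Mrps6 shares 19.9%. A second deposited table of normalized values was not used, and 0 columns of per-sample counts were left out.

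Libraries were grouped by the labelled age, and replicates were numbered in accession order, which names libraries and pairs none. Libraries of 2 to 24 months differed beyond counting noise from others of their age (chi-square per degree of freedom 1.56 to 7.00), and so did those of 30 months (5.03 to 148). Each was counted as 1 replicate, though such values cannot show that the libraries come from separate animals. Genes past edgeR's filterByExpr (17799, all 77 members among them) were scaled by TMM and tested with edgeR 4.0.16 (R 4.3.3) by the quasi-likelihood F test, two-sided, with Benjamini-Hochberg adjustment over all genes and a threshold of 0.05. Comparisons of the younger ages and the line over age used the 20 libraries of 2 to 24 months, and comparisons with 30 months all 25. GC correction fitted a natural spline with 5 degrees of freedom to each library's log ratio against GC content and scaled again by TMM. Alternatives were 1 joint fit, Alb as a covariate, fits without 30 months replicates 2 to 5, GC correction, DESeq2's size factors, total counts, no filter, DESeq2 1.42.0, limma-voom (limma 3.58.1) and leaving out each library, and the sums without replicates 2 to 5 were added after seeing the data. Counts vary by sampling, so members with few counts have wide errors.

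The members, gene lists and named genes were chosen with earlier results of these data known. Named were Mrpl15, up to 4 called members in each direction with the smallest p per comparison (2 in each direction, as values, where fewer than 2 were called), the 4 highest and 4 lowest members per kilobase, members nearest to the limit of 1 CPM, members of set roles, and up to 2 called genes of each pathway list. A few further genes are named where a count needed it, after their values were seen. 1 of the listed cell type markers is not reported here, in sums or alone.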

Additional observations from a re-analysis of the deposited data

Results flagged for a closer look

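In 15 of 175 groups of 5 libraries, the highest or lowest library stood further from the nearest of the others, relative to the whole range, than Dixon's critical value for 5 (0.71). Chance flags about 1 in 20 groups. In the libraries of 30 months, replicate 5 was the highest for the summed large subunit (1148 CPM, the others 971 to 994) and the summed small subunit (614 CPM, the others 493 to 513). Replicate 5 was also the highest for Mrpl11 (38.9 CPM, the others 27.5 to 29.4), Mrpl2 (39.8 CPM, the others 23.6 to 27.9), Mrps34 (9.28 CPM, the others 6.42 to 7.17) and Mrps6 (26.9 CPM, the others 15.7 to 18.1). Replicate 1 of 30 months was the highest for Mrpl47 (12.5 CPM, the others 3.79 to 5.26) and Mrps22 (15.1 CPM, the others 7.19 to 9.14).

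Among the younger ages, Mrpl57 was low in 2 months replicate 5 (9.00 CPM, the others 10.6 to 11.2) and Mrpl58 high in 2 months replicate 1 (31.5 CPM, the others 27.4 to 28.5). At 9 months, Mrpl3 was high in replicate 3 (73.8 CPM, the others 71.7 to 72.1), and Mrps24 (12.1 CPM, the others 13.4 to 13.5) and Mrps34 (3.44 CPM, the others 4.99 to 5.60) were low in replicate 4. At 24 months, Mrpl10 was high in replicate 5 (37.1 CPM, the others 34.6 to 35.2) and Mrps22 in replicate 2 (16.2 CPM, the others 14.8 to 15.0). The cause of these values was not tested.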

How the results depend on the processing

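No paired analysis was possible because replicates were numbered in accession order only, which pairs none. In 1 joint edgeR fit of all 25 libraries the members called were 0 at 9, 15 and 24 against 2 months and in the line over age (11, 0, 6 and 6 at an unadjusted p below 0.05), against 2.38%, 1.26%, 5.23% and 5.56% of all genes, and 1 at 24 against 15 months, against 1.13%. With Alb as a covariate 3 were called at 15 and 1 at 24 against 2 months and 0 in the line over age. After GC correction 0 were called at 15 against 2 months (8 at an unadjusted p below 0.05) and 6 at 24 against 15 months. With no filter these were 0 and 11, and 2 in the line over age. DESeq2 gave 13 at 24 against 15 months, and 1 was called at 30 months against either age without 30 months replicates 2 to 5. Leaving out 1 library each gave 5 to 9 members at 9, 0 to 3 at 15 and 3 to 6 at 24 against 2 months, 10 to 20 at 24 against 15 months, 0 to 5 in the line over age, 34 to 49 at 30 against 2 and 32 to 45 at 30 against 24 months. Mrpl36 at 30 against 24 months changed sign without 30 months replicates 2 to 5 (-0.021). The log2 ratio to 2 months of the large subunit sum was -0.033 at 9 months with total counts and 0.13 at 30 months after GC correction, where that of the small subunit sum was 0.27. Other alternatives kept the direction and side of the threshold in 266 values of named members, 68 fell short of the threshold and 1 passed it. The cause of these changes was not tested. Low counts limit members such as Mrpl23, and scaling by total counts moved the median of all genes at 30 against 2 months to 0.070.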
